A study of Mus musculus with 8 samples.

Results

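Messenger RNA of the folding machinery of the endoplasmic reticulum (ER) was compared between the young adult (6m) and the aged (24m) mouse brain. The 10 genes are Hspa5, Hsp90b1, Calr, Canx, Pdia3, Pdia4, Pdia6, Xbp1, Atf4 and Ddit3. They were picked by symbol as ER folding proteins and stress transcription factors, and they take up 11 of the 22430 gene records in the count table because Ddit3 has 2 records. All mice were males of the inbred strain C57Bl/6JRj at both ages, and the labels name no treatment and no engineered allele. Each age has 4 mice, and each mouse gave 1 library, which was read by direct RNA sequencing on a nanopore device. The labels name whole brain, and the methods describe dissected whole hemispheres without their number per mouse. Every cell type of the tissue is therefore mixed in each value.

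The ER is where secreted and membrane proteins fold. Hsp70 and Hsp90 chaperones hold unfolded chains, lectin chaperones hold chains that carry sugar trees, and disulfide isomerases join their cysteines. When unfolded chains pile up, the sensors Ern1 (IRE1), Eif2ak3 (PERK) and Atf6 start the unfolded protein response, which works through the transcription factors Xbp1, Atf4, Ddit3 (CHOP) and Atf6 itself and raises chaperone genes, or, when stress lasts, favours cell death.

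Libraries held 573152 to 1255424 counted reads, of which 0.124% to 0.162% fell on the 10 genes. Marker sums, given in CPM (read counts per 1e6 reads, with library sizes scaled by TMM factors), were higher at 24m for oligodendrocytes (1562 to 2110 at 6m, 2155 to 2888 at 24m) and microglia (237 to 255 at 6m, 294 to 427 at 24m), and the ages overlapped for neurons (1509 to 1675, 1605 to 1831), astrocytes (2182 to 2655, 2241 to 2951), endothelial cells (90.4 to 119, 66.0 to 94.7) and choroid plexus (3090 to 4607, 2388 to 4611). Single markers rose in 4 of these cell types, most of all in astrocytes with 3 of 4 tested markers (Gfap with a log2FC of 1.94, Slc1a3 of 1.65 and Gja1 of 1.42, each without overlap of the ages), although the astrocyte sum, carried by Aldoc (log2FC -0.13), did not separate the ages. In oligodendrocytes 2 of 5 tested markers rose, in microglia 1 of 3 and in neurons 1 of 5 (Snap25, 0.77). The oligodendrocyte sum was carried largely by Mbp (mean 1073 CPM at 6m, 1770 at 24m), and the microglia sum by C1qa (173 and 244). Mag of oligodendrocytes did not rise (log2FC -0.08), and the untested microglia marker P2ry12 was at 5.24 CPM at 6m and 5.39 at 24m. Lower by padj alone were the neuron marker Tubb3 (-0.30, edgeR padj = 0.0353) and the endothelial marker Ly6c1 (edgeR padj = 0.0150). The choroid plexus marker Enpp2 was lower by padj alone too (-0.46, edgeR padj = 0.00550). Higher by padj alone were Syt1 (0.56) and Rbfox3 (0.52) of neurons, C1qa (0.47) of microglia and Mobp (0.35) of oligodendrocytes. The library of 24m replicate 1 stood apart with a B cell and plasma cell marker sum of 1884 CPM, against 46.1 to 117 CPM in the other aged libraries. The part of these cell types in the results that follow was not tested.

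Of the 11 records, 1 changed with age, Hsp90b1, which fell. A gene was called changed when edgeR's quasi-likelihood test gave a Benjamini-Hochberg adjusted p (padj) of at most 0.05 together with a |log2FC| of at least 0.58. By that rule 14.5% of the 9375 tested genes changed in either direction, and 4.17% changed and were lower at 24m. By padj alone 4 records passed, Hsp90b1, Pdia3 and Atf4 being lower and Canx higher, where 21.7% of all tested genes passed. CPM of the ages did not overlap for 2 records, Hsp90b1 and Pdia3, against 21.1% of all tested genes. Against this background, 1 changed record of 11 is a result about Hsp90b1 and not about the list. The log2FC was negative for 8 records and positive for 3, with a median of -0.28, while the median over all tested genes was -0.00337 and 50.3% of them were negative.

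**Figure D1:**
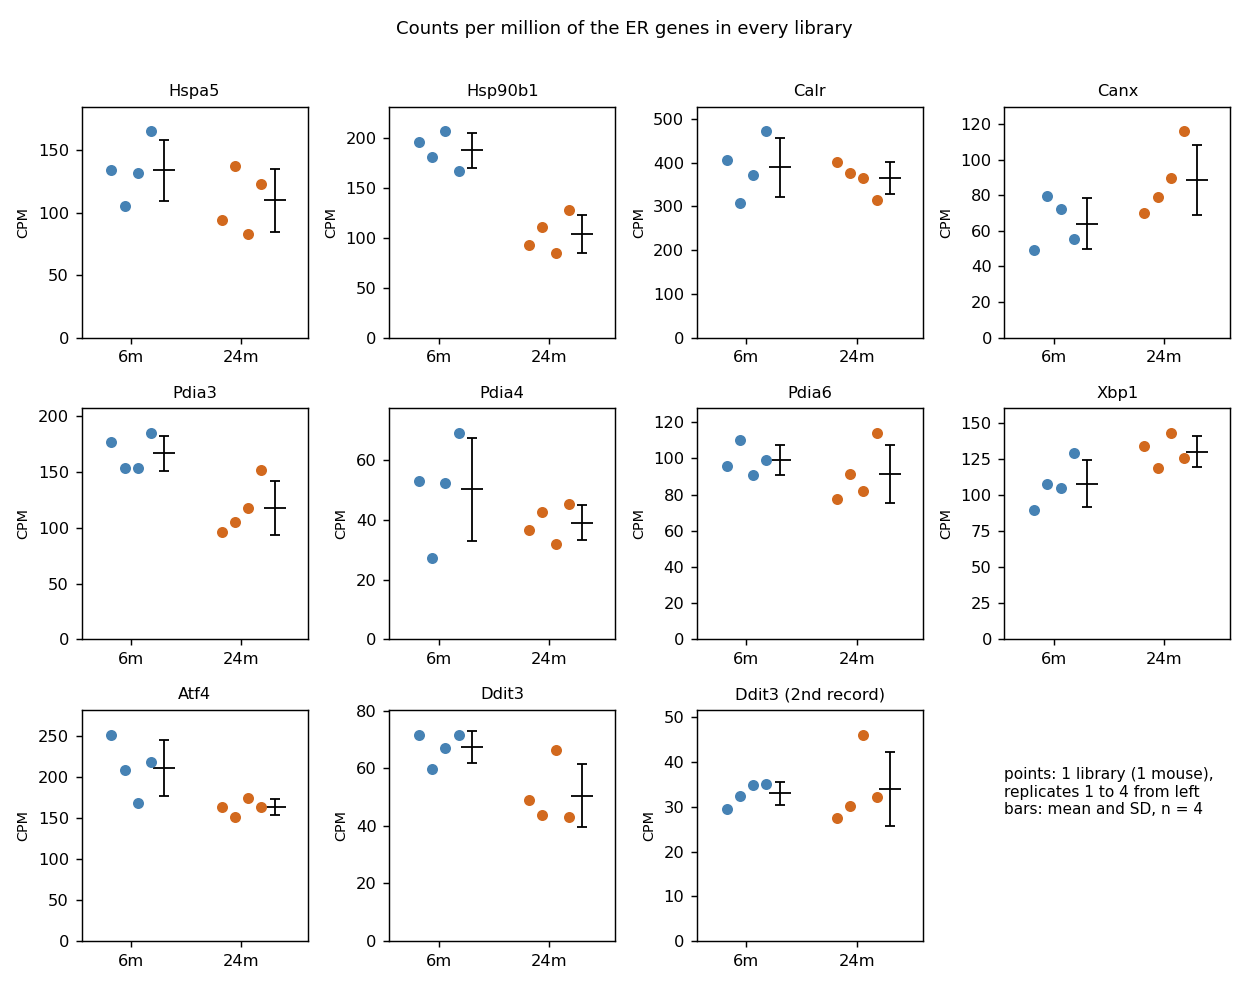
CPM (vertical axes, from 0) of the 11 records in the 4 libraries of 6m (blue) and the 4 of 24m (orange), with 1 point per mouse and bars for the mean and SD. The 24m points of Hsp90b1 (84.5 to 128 CPM) lie under all 6m points (167 to 207 CPM), while the ages overlap for Hspa5, Calr and Pdia6.

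Hsp90b1 (chr10:86526073-86541446 of GRCm39, minus strand), also called GRP94, is the Hsp90 chaperone of the ER lumen and finishes the folding of a narrow set of clients, among them integrins and Toll-like receptors. It was measured at 196, 181, 207 and 167 CPM in 6m replicates 1 to 4 and at 93.0, 111, 84.5 and 128 CPM in 24m replicates 1 to 4. All 4 aged libraries were lower than all 4 young ones. Mean CPM was 188 ± 17.3 in the young and 104 ± 19.5 in the aged brain (± SD, n = 4), from 61 to 167 reads per library. Its log2FC was -0.83 (SE 0.135, edgeR padj = 0.000107), that is 0.564 of the 6m level, and 3.31% of the tested genes had a lower log2FC. With 1 library left out at a time, its log2FC ran from -0.94 to -0.73 and it stayed changed all 8 times, also without 24m replicate 1 (-0.76). In whole-tissue RNA, fewer cells of a type and less RNA per cell cannot be told apart.

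Hspa5 (chr2:34661982-34668880, plus strand), also called BiP or GRP78, is the Hsp70 of the ER lumen and the most widely used readout of ER stress, since it binds unfolded chains and the sensors of the response. Its values were 134, 105, 132 and 165 CPM at 6m and 94.5, 137, 83.2 and 123 CPM at 24m. The ages overlapped, with 2 of the 4 aged libraries below all young ones. The log2FC of -0.28 (SE 0.156) did not pass (edgeR padj = 0.211), and without any 1 library it ran from -0.40 to -0.16.

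Among the lectin chaperones, Calr and Canx bind the same sugar signal on new glycoproteins, Calr as a soluble protein that also stores calcium and Canx from within the ER membrane. Calr (chr8:85567946-85573667, minus strand) stood at 406, 307, 372 and 471 CPM at 6m and at 402, 377, 365 and 314 CPM at 24m. Every aged value lay within the young range. Its log2FC was -0.11 (SE 0.112, edgeR padj = 0.536), and it was 0.01 without 6m replicate 4, the library with its highest value.

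Canx (chr11:50183939-50216529, minus strand) was the member with the highest log2FC. It gave 49.2, 79.6, 72.2 and 55.3 CPM at 6m and 70.1, 79.0, 89.6 and 116 CPM at 24m. The 2 highest aged libraries were above all young ones and the other 2 were within the young range. The log2FC was 0.51 (SE 0.177, edgeR padj = 0.0381), under the fold minimum. The call moved both ways with single libraries. Canx counted as changed without 6m replicate 2 (0.63), 6m replicate 3 (0.59) or 24m replicate 1 (0.62). It missed the padj limit without 6m replicate 1 (0.41), 6m replicate 4 (0.46), 24m replicate 3 (0.52) or 24m replicate 4 (0.36). Over all alternatives its edgeR, limma or DESeq2 padj ran from 0.00688 to 0.155.

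Of the 3 disulfide isomerases, Pdia3 alone passed by padj. Pdia3 (chr2, also called ERp57) forms and reshuffles disulfide bonds in glycoproteins that Calr and Canx hold. It was read at 177, 154, 154 and 185 CPM at 6m and at 96.0, 105, 118 and 152 CPM at 24m. The ages did not overlap, although 24m replicate 4 at 152 CPM came close to the lowest young libraries. Its log2FC was -0.49 (SE 0.138, edgeR padj = 0.0130), under the fold minimum. Without 24m replicate 4 it was -0.64 and counted as changed (edgeR padj = 0.00157), and it missed the padj limit without 6m replicate 1 (-0.46), 6m replicate 4 (-0.43) or 24m replicate 2 (-0.43), the highest padj being 0.0620.

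Pdia4 (ERp72) and Pdia6 (P5) are isomerases found in complexes with Hspa5. Pdia4 was measured at 52.9, 27.1, 52.3 and 69.1 CPM at 6m and at 36.6, 42.6, 32.0 and 45.3 CPM at 24m, so all aged values fell within the young spread. Its log2FC was -0.37 (SE 0.204, edgeR padj = 0.198). Pdia6 was measured at 96.0, 110, 90.9 and 99.2 CPM at 6m and at 77.7, 91.5, 81.9 and 114 CPM at 24m, with a log2FC of -0.09 (SE 0.148, edgeR padj = 0.710). With library sizes in place of TMM factors, a scaling that moves the median of all tested genes to a log2FC of 0.10, the log2FC of Pdia6 was 0.02.

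**Figure D2:**
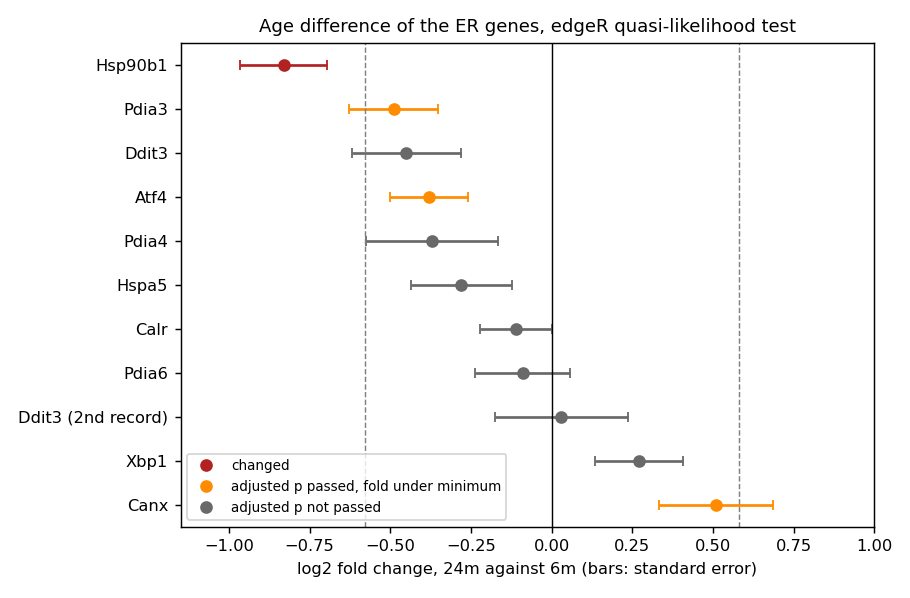
log2FC at 24m against 6m of the 11 records (horizontal axis, bars for the standard error), with dashed lines at the fold minimum of 0.58. Hsp90b1 at -0.83 alone lies past the minimum with a passing adjusted p, while Pdia3 (-0.49), Atf4 (-0.38) and Canx (0.51) pass by adjusted p only.

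The stress transcription factors were all detected. Atf4 (chr15) is made when phosphorylated eIF2α slows general translation and turns on genes of amino acid supply and, when stress lasts, Ddit3. It was read at 251, 208, 168 and 218 CPM at 6m and at 163, 151, 174 and 163 CPM at 24m. In 3 of the 4 aged libraries it was below all young ones, and the aged libraries varied less (SD 9.51 CPM) than the young ones (SD 34.3 CPM). The log2FC was -0.38 (SE 0.122, edgeR padj = 0.0265). It missed the padj limit in 5 of the 8 fits that left out a library, namely without 6m replicate 1 (-0.28), 6m replicate 2 (-0.38), 6m replicate 4 (-0.36), 24m replicate 2 (-0.34) or 24m replicate 4 (-0.36), with a padj of up to 0.166, and in 3 of 11 other settings. Atf4 is regulated largely through its translation, which read counts do not show.

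Ddit3, or CHOP, is a factor tied to the switch from adaptation to cell death. Its main record (ENSMUSG00000025408) held 71.4, 59.7, 67.2 and 71.6 CPM at 6m and 48.8, 43.7, 66.5 and 43.0 CPM at 24m. Aged replicate 3 was within the young range and the other 3 aged libraries were below it. The log2FC was -0.45 (SE 0.168) and missed the limit (edgeR padj = 0.0556), whereas without 24m replicate 3 it was -0.60 and counted as changed (edgeR padj = 0.0188). Over all alternatives its edgeR, limma or DESeq2 padj ran from 0.0188 to 0.193.

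The other Ddit3 record (ENSMUSG00000116429) is annotated with a canonical transcript of 105 bases on the same strand, and it shares exon bases with the first. It held 29.5, 32.5, 34.8 and 35.2 CPM at 6m and 27.4, 30.2, 46.1 and 32.2 CPM at 24m, with a log2FC of 0.03 (SE 0.207, edgeR padj = 0.930). How reads on shared bases were assigned is not given in the sources used here, so the split of Ddit3 reads over both records is uncertain.

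Xbp1 (chr11), whose mRNA is spliced by Ern1 outside the nucleus to give the active factor, was at 89.9, 108, 105 and 129 CPM at 6m and at 134, 119, 143 and 126 CPM at 24m. Of the aged libraries 2 were above all young ones. The log2FC was 0.27 (SE 0.136, edgeR padj = 0.168). Gene counts do not separate the spliced from the unspliced form.

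**Figure D3:**
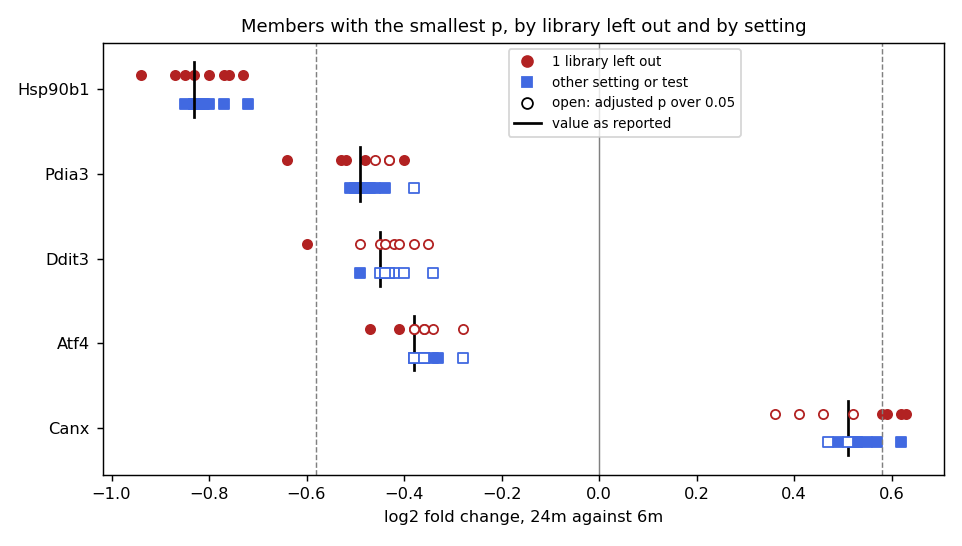
log2FC at 24m against 6m (horizontal axis) of the 5 members with the smallest p, with circles for fits without 1 library, squares for other settings or tests, open symbols where the adjusted p was over 0.05 and dashed lines at the fold minimum of 0.58. Hsp90b1 stays past the minimum with filled symbols throughout (-0.94 to -0.72), while Pdia3, Ddit3, Atf4 and Canx move across one limit or the other.

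Ratios within a library do not depend on the scaling between libraries, and 3 were tested by a two-sided exact permutation test over 70 assignments, for which 0.029 is the smallest p. Reads of Hspa5 per read of Hsp90b1 numbered 0.687, 0.582, 0.640 and 0.985 at 6m and 1.02, 1.23, 0.985 and 0.964 at 24m. The young library of replicate 4 lay at the aged level and the other 3 young libraries below it. The mean log2 ratio was -0.50 ± 0.33 at 6m and 0.06 ± 0.16 at 24m (± SD, n = 4; exact permutation p = 0.0857, adjusted over the 3 ratios 0.129).

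Reads of Pdia3 per read of Pdia6 numbered 1.84, 1.39, 1.69 and 1.86 at 6m and 1.23, 1.15, 1.43 and 1.34 at 24m, a log2 difference of -0.39 (exact permutation p = 0.0571, adjusted 0.129). Reads of Calr per read of Canx numbered 8.16, 3.83, 5.12 and 8.44 at 6m and 5.69, 4.75, 4.05 and 2.71 at 24m, a log2 difference of -0.55 (exact permutation p = 0.2, adjusted 0.2). None of the 3 ratios passed, so a shift from soluble to membrane-bound lectin, or between the Hsp70 and the Hsp90, was not shown beyond the spread between mice.

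**Figure D4:**
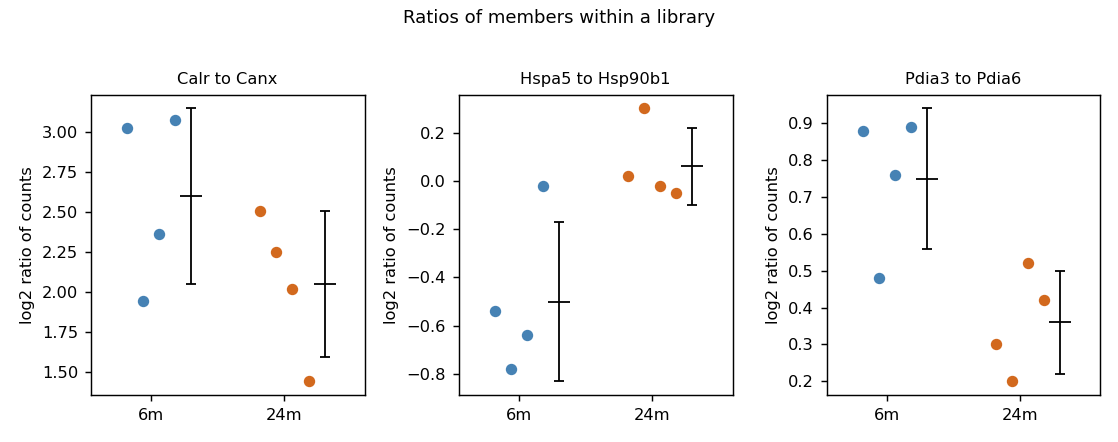
log2 of the ratio of read counts within a library (vertical axes) for 3 pairs of members, with 1 point per mouse at 6m (blue) and 24m (orange) and bars for the mean and SD. In each pair at least 1 library of one age falls within the range of the other, and the log2 differences were -0.55 for Calr to Canx, 0.56 for Hspa5 to Hsp90b1 and -0.39 for Pdia3 to Pdia6.

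Several members share a promoter element. The ER stress element, spelled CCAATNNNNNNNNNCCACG, is the sequence through which Atf6 together with the CCAAT-binding factor NF-Y raises chaperone genes. It was searched on both strands from 250 bases before to 50 bases after the start of the canonical transcript. Of the 10 genes 5 hold it, Hspa5, Hsp90b1, Calr, Canx and Pdia6, against 0.124% of 21757 annotated promoters (27) and 0.118% of 9308 promoters of tested genes (11). Since the members were picked as ER folding genes, the kind this element is known for, its frequency among them is no finding of these data. Only exact matches were searched, so a member without one may still hold a variant. The sites are shown because an exact match sets these 5 apart from the other members. Fixed letters of the element are in capitals, with 5 bases on each side, as read from GRCm39 with GENCODE vM39 starts.
Hspa5, chr2:34662032-34662060, plus strand: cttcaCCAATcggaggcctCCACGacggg
Hsp90b1, chr10:86541497-86541525, minus strand: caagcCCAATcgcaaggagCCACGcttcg
Hsp90b1, chr10:86541392-86541420, plus strand: actcaCCAATcgtgcctcaCCACGcactc
Calr, chr8:85573699-85573727, plus strand: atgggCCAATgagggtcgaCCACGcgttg
Canx, chr11:50216622-50216650, minus strand: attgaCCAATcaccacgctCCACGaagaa
Pdia6, chr12:17316487-17316515, plus strand: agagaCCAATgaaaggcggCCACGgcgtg

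Hsp90b1, the changed member, was the only one with 2 such sites in its window, their upstream edges lying 142 and 37 bases before the start. The same element did not go with one direction of change. Of the 11 tested genes that hold it, 7 had a negative and 4 a positive log2FC, from -1.20 to 0.51, and 2 changed, both lower (Hsp90b1 and Dnajc3). Over all tested genes 50.3% had a negative log2FC, 14.5% changed and 4.17% changed and were lower. The 11 genes include the 5 members, Hsp90b1 among them, and Dnajc3 rests on 2 to 15 reads per library. Among the other members with the element, Hspa5 (-0.28), Calr (-0.11) and Pdia6 (-0.09) did not pass by padj, and Canx (0.51) passed in the opposite direction.

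The second form of the element, ATTGGNCCACG, was in no member's window and in 0.0689% of all promoters. The composite element that Atf4 binds with C/EBP partners, TGATGNAA, was in 1 member, Ddit3, and in 3.84% of all promoters. That site is shown because Ddit3 is a known target of Atf4, with the fixed letters in capitals.
Ddit3, chr10:127126356-127126373, minus strand: ggggaTGATGcAAtgttt

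A match of letters is a description and shows no binding. The members' canonical transcripts, leaving out the short Ddit3 record, ran from 979 bases (Ddit3) to 5495 bases (Pdia4), with a median of 3080 bases against 3120 for all tested genes. None of these transcripts had a near-identical copy (at least 95% identity over at least 50% of the transcript) elsewhere in the annotation. The short Ddit3 record had one in the main Ddit3 record, where the match covers 10.7% of the main transcript. Exons of Hspa5, Hsp90b1, Canx, Pdia3, Pdia6, Xbp1 and Ddit3 overlap exons of other genes on the opposite strand, and whether the counting used strand is not given in the sources used here. Calr and Atf4 overlap no other gene. On its own strand Hsp90b1 shares exon bases with the annotated records Gm15344 and Gm54730, and Pdia4 with Mir704.

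The wider ER machinery was described with 9 lists that held 122 further genes, of which 97 were tested and 25 were too low. Of the tested genes, 11 changed (11.3%, against 14.5% of all tested genes), 10 of them higher and 1 lower. Over all tested genes 10.3% changed and were higher. The log2FC was positive for 48 of the 97 and negative for 49.

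Among 12 tested partners of the Hsp70 and Hsp90, 1 changed (8.33%, against 14.5% of all tested genes). Dnajc3 (p58IPK), a J-domain co-chaperone of Hspa5, was the 1 changed gene that was lower, with a mean CPM of 12.8 ± 4.72 in the young and 5.32 ± 2.10 in the aged brain (± SD of 4 mice; log2FC -1.20 with SE 0.401, edgeR padj = 0.0330). It rests on 2 to 15 reads per library and lost its call without 6m replicate 1 (edgeR padj = 0.145), 6m replicate 3, 24m replicate 1, 24m replicate 2 or 24m replicate 3. The call of Dnajc3 was also lost with DESeq2 on raw counts (DESeq2 padj = 0.11) or on quantile-normalized counts (DESeq2 padj = 0.0655). The same held with library sizes alone (edgeR padj = 0.0553) and with the replicate block (edgeR padj = 0.0502). Hyou1 (0.62, edgeR padj = 0.230), an Hsp110 that reloads Hspa5, and Dnajb9 (0.38, edgeR padj = 0.326), another J-domain partner, did not pass. Both turned on 24m replicate 4, without which Hyou1 was at 0.96 and counted as changed (edgeR padj = 0.0387) and Dnajb9 was at 0.07.

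Of the 10 other tested genes of disulfide formation, 2 changed by edgeR's test (20%, against 14.5% of all tested genes) and both rose. With DESeq2 on raw counts 0 of the 10 changed, and with limma 1 did. Mean CPM of Txndc5 was 19.6 ± 7.72 in the young and 35.4 ± 5.41 in the aged brain (± SD of 4 mice; log2FC 0.82 with SE 0.260, edgeR padj = 0.0249), and it lost its call without 6m replicate 3 (edgeR padj = 0.113), 24m replicate 2 (0.0522) or 24m replicate 3 (0.0526). Txndc12 (log2FC 0.59, SE 0.213, edgeR padj = 0.0469) lost its call in 6 of the 8 fits without a library and kept it without 24m replicate 1 or 24m replicate 4. P4hb (0.17, edgeR padj = 0.477), the founding member of the isomerase family, did not pass.

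The sensors were thinly covered. Ern1, which splices Xbp1, had 0 reads in every library, which allows up to 3 reads, or 2.30 to 5.42 CPM. Atf6 held 1 to 5 reads per library at 6m and 2 to 3 at 24m and was not tested. Eif2ak3, which phosphorylates eIF2α upstream of Atf4, had 3 to 12 reads per library and a log2FC of 0.57 (SE 0.419, edgeR padj = 0.360). The list of sensors and transcription factors, with the members left out, had 4 tested genes. Of Ern1, Eif2ak3 and Atf6, only Eif2ak3 was among them. By edgeR's test none of the 4 changed, none had an unadjusted p under 0.05, and none changed with DESeq2 or limma. Of 13 tested genes downstream of Atf4, 1 changed (7.69%, against 14.5% of all tested genes), the amino acid transporter Slc7a5. It rose from 11.0 ± 4.80 to 27.3 ± 4.91 CPM (log2FC 1.23, SE 0.295, edgeR padj = 0.00422) and kept its call in all 8 fits without a library.

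ER-associated degradation, the route by which misfolded chains leave the ER, was the list with the most changed genes. Of its 17 tested genes 5 changed (29.4%), all higher. Ufd1 (0.71, edgeR padj = 0.0116) and Nploc4 (1.04, edgeR padj = 0.0151), which together help the p97 ATPase pull chains out of the membrane, were higher, the call of Nploc4 being lost without 6m replicate 3 (edgeR padj = 0.0509) or 24m replicate 2 (edgeR padj = 0.0541). Sel1l (1.10, edgeR padj = 0.0301) and Man1b1 (0.79, edgeR padj = 0.0370) lost their calls in 4 and 6 of the 8 fits that left out a library, both without 6m replicate 1, 24m replicate 2 or 24m replicate 3, Sel1l also without 6m replicate 4, and Man1b1 also without 6m replicate 2, 6m replicate 3 or 24m replicate 1. These 2 were named after their values were seen. With DESeq2 on raw counts, and with limma, 3 of the 17 genes changed in place of 5.

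Herpud1 went the other way. This stress-induced scaffold of the same route was at 155 ± 4.97 CPM at 6m and 113 ± 14.4 CPM at 24m (log2FC -0.46, SE 0.127, edgeR padj = 0.0113), below the fold minimum, with no overlap of the ages, and it missed the padj limit without 24m replicate 2 (-0.37, edgeR padj = 0.0611).

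Of the translocation machinery, 2 of 23 tested genes changed (8.7%, against 14.5% of all tested genes). Sec61a1, the channel subunit (0.89, edgeR padj = 0.0108), and Ssr3, of the complex beside it (1.01, edgeR padj = 0.00915), were both higher, the call of Ssr3 being lost without 24m replicate 4 (edgeR padj = 0.0517). By edgeR's test no gene changed among 11 of the oligosaccharyltransferase (6 with an unadjusted p under 0.05), 4 of glucose trimming (2 with an unadjusted p under 0.05) or 3 of ER retention (0 with an unadjusted p under 0.05). DESeq2 called none of them either, and limma called 1, Uggt1, the sensor that hands misfolded glycoproteins back to Calr and Canx, which had a log2FC of -0.86 and edgeR padj = 0.0863 and was named after its values were seen. The KDEL receptors carry escaped Hspa5, Hsp90b1 and Calr back to the ER. Kdelr1 had a log2FC of -0.03 (edgeR padj = 0.915) and Kdelr2 of 0.50 (edgeR padj = 0.201), and Kdelr3 held at most 2 reads in any library.

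**Figure D5:**
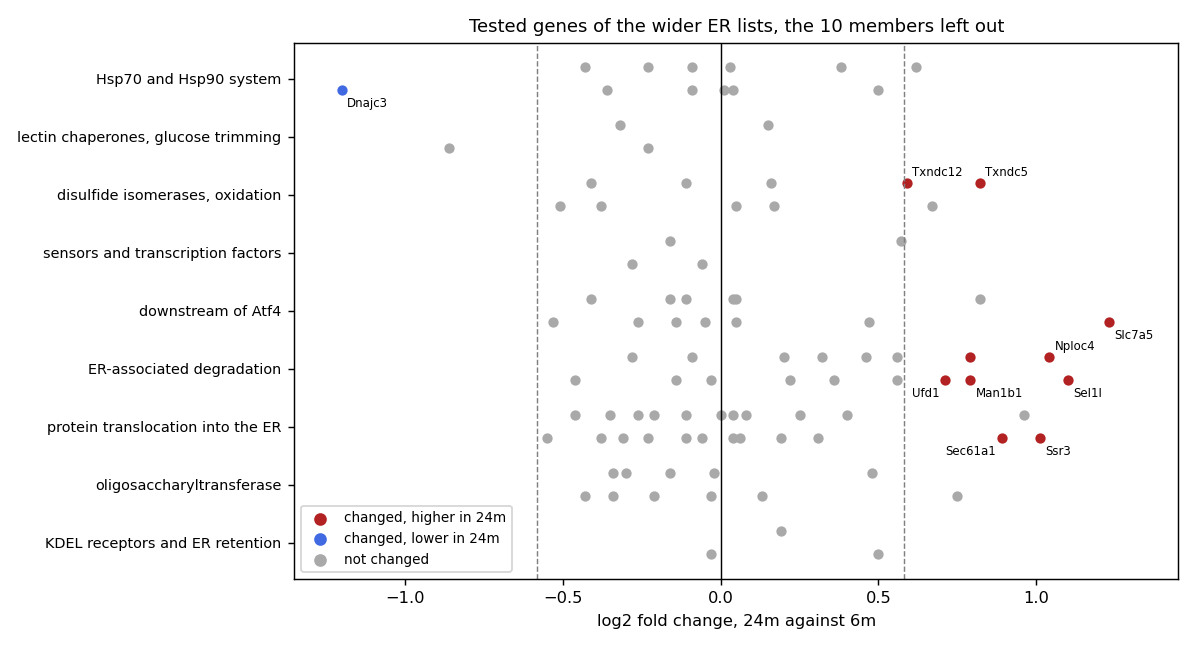
log2FC at 24m against 6m (horizontal axis) of the 97 tested genes in the 9 wider ER lists (rows), with 1 point per gene, red for changed and higher, blue for changed and lower and dashed lines at the fold minimum of 0.58. The 10 higher genes include 5 of ER-associated degradation (0.71 to 1.10), and Dnajc3 at -1.20 is the 1 lower gene.

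Libraries differed in how the members stood as a set. In 24m replicate 1, the library with the high B cell and plasma cell sum, 8 of the 11 records were below their age's mean log2 CPM, with a median deviation of -0.14. In 24m replicate 4, the deepest library, 7 were above it, with a median deviation of 0.20. Young libraries were as one-sided in number, with 8 records below the mean in 6m replicate 2 and 9 above it in 6m replicate 4. Their median deviations were smaller, from -0.05 to 0.09.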

How the data were processed

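The authors deposited unnormalized gene counts. Per the labels and the methods, brain RNA of 8 mice was run on a MinION. The labels name whole brain where the methods name whole hemispheres. Reads were aligned by minimap2 (2.24 in the submitters' processing notes) to GRCm39 and counted with featureCounts on an Ensembl annotation. The strand, overlap and multi-mapping settings are not given in the sources used here. The labels name a directional polyA+ kit where the methods describe direct RNA sequencing, and the methods were followed.

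Records were matched by identifier to GENCODE vM39 (22281 of 22430). In R 4.3.3, genes whose counts averaged over 5 per library entered the test of age in edgeR 4.0.16 (quasi-likelihood, TMM factors, age as the only term), with Benjamini-Hochberg padj over all 9375 tested genes. Alternatives used DESeq2 1.42.0, which the authors ran after quantile and row-median normalization, and limma 3.58.1. The scripts were tested on simulated data. Near-identical copies were searched with BLAST+ 2.17.0. Members and gene lists were chosen with earlier results of these data known. Of each wider list, at most 3 changed genes per direction with the smallest p are named, with Ern1, Eif2ak3, Atf6, P4hb, Hyou1, Herpud1, Dnajb9 and the KDEL receptors whatever their values. A gene that this rule selects is counted with its list and not reported here.

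Where all libraries of an age held at most 3 reads, no fold change is given. With 573152 to 1255424 reads per library, 3 reads stand for 2.30 to 5.42 CPM, a floor that covers counting error only.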

Additional observations from a re-analysis of the deposited data

Results flagged for a closer look

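In 82 groups of 4 libraries, the highest or lowest library was set against the others by Dixon's test, and 2 stood apart, where about 4.1 would by chance at 1 in 20. The 6m replicate 2 library had Kdelr3 at 1.81 CPM and the other 3 young libraries had it at 0, a difference of 1 read. The 24m replicate 1 library had a summed B cell and plasma cell marker level of 1884 CPM, with 46.1 to 117 CPM in the other aged libraries. None of the 11 records of the ER genes had a library that stood apart by this test, nor did their share of all counts.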

How the results depend on the processing

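Hsp90b1 stayed changed under all 20 alternatives, with a log2FC from -0.94 to -0.72. The number of changed members, 1 as reported, was 2 with library sizes alone (Hsp90b1 and Canx), 4 by adjusted p alone, and 1 to 2 when single libraries were left out. The number of other changed ER genes, 11 as reported, was 6 with DESeq2 on raw counts, 2 with DESeq2 on quantile-normalized counts, 22 by adjusted p alone, and 6 to 15 when single libraries were left out, the lowest being without 6m replicate 3, 24m replicate 2 or 24m replicate 3. The cause was not tested. Small values changed sign. Calr ran from -0.19 to 0.01 with single libraries left out (0.01 without 6m replicate 4), and Pdia6 at 0.02 with library sizes alone. The short Ddit3 record was at -0.01 with DESeq2 on quantile-normalized counts, -0.04 with limma-voom, and from -0.12 (without 24m replicate 3) to 0.11 with single libraries left out (-0.01 without 6m replicate 1). Kdelr1 was at 0.08 with library sizes alone, 0.02 with more than 5 counts in every library, and from -0.10 to 0.03 with single libraries left out (0.03 without 24m replicate 1 and 0.02 without 24m replicate 4). All 3 ratios kept their direction under every alternative run. With 1 added in place of 0.5 their adjusted p stayed at 0.129 to 0.2, the block test of 4 pairs cannot go below 0.125, and no p was computed for pooled counts or with a library left out, where the log2 differences were -0.77 to -0.34 for Calr to Canx, 0.47 to 0.72 for Hspa5 to Hsp90b1 and -0.48 to -0.34 for Pdia3 to Pdia6.

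Same-numbered libraries did not deviate together (correlations of 0.0647, -0.0101, 0.0051 and -0.160 over genes), and the main test did not pair them. Such correlations cannot show whether same-numbered libraries shared a step of handling. With the replicate block 1 member and 9 other ER genes were changed, and the log2FC of Hsp90b1 was -0.83.

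The member records held 27.9 to 312 reads per library on average. The smallest detectable difference was not measured. The 25 untested ER genes, Ern1 and Atf6 among them, were too low to compare.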

Other observations

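Of the 97 further ER genes tested, 11 passed by adjusted p and stayed under the fold minimum. Herpud1 is one of them, and the others are named here after their values were seen. By edgeR's test (Benjamini-Hochberg padj), 3 of the 11 were higher at 24m and 8 lower. With the 11 genes past the fold minimum included, 13 of the 97 passed by padj and were higher and 9 were lower, 22.7% in all against 21.7% of all tested genes.

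The higher ones were Cnpy3 (log2FC 0.50, padj = 0.0295), a co-chaperone of Hsp90b1 for Toll-like receptors, Psat1 (0.47, padj = 0.0119), an enzyme of serine synthesis, and Derl1 (0.56, padj = 0.0161), a membrane protein of ER-associated degradation. Cnpy3 went from 44.8 ± 7.17 to 64.0 ± 3.00 CPM (± SD of 4 mice), while Hsp90b1 went from 188 ± 17.3 to 104 ± 19.5 CPM.

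Among the lower ones, 3 belong to the oligosaccharyltransferase, which attaches the sugar trees that Calr and Canx later read, namely Rpn2 (-0.30, padj = 0.0485), Krtcap2 (-0.34, padj = 0.0361) and Tmem258 (-0.43, padj = 0.0309). Asns, asparagine synthetase and a target of Atf4, had a mean CPM of 230 ± 12.1 in the young and 174 ± 4.26 in the aged brain (± SD of 4 mice; log2FC -0.41, padj = 0.00708), so that of the genes downstream of Atf4 that passed, Asns was lower and Psat1 and Slc7a5 were higher. Prdx4 (-0.51, padj = 0.0160), a peroxiredoxin of the ER, Ssr4 (-0.38, padj = 0.0255) of the translocon and Srp54a (-0.55, padj = 0.0100) of the signal recognition particle were lower too.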
